A study of Homo sapiens with 32 samples.

Results

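The transcripts described here are those of 10 genes for cyclins, CDK inhibitors and growth arrest. They include the D-type cyclins CCND1, CCND2 and CCND3 and the E-type cyclins CCNE1 and CCNE2. The CIP/KIP inhibitors are CDKN1A (p21), CDKN1B (p27) and CDKN1C (p57), and the others are the stress-induced arrest gene GADD45A and the ubiquitin ligase MDM2. All 10 were picked by gene symbol, with earlier results of these data known, and are 10 of the 22610 rows of the deposited expression table. The data are poly(A) RNA-seq profiles of SK-N-BE(2), an established human neuroblastoma line with amplified MYCN. Cells were exposed to 20 µM cannabidiol (CBD), a non-intoxicating cannabinoid delivered in ethanol, or to vehicle, 0.1% ethanol, and were collected after 3, 6, 12 and 24 h. Each of the 8 groups held 4 replicates, giving 32 samples, all of 1 cell line with no engineered change named in the labels, and every CBD group had a vehicle group of the same time.

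D-type cyclins bind CDK4 and CDK6 and begin the phosphorylation of the retinoblastoma protein, and E-type cyclins bind CDK2 and complete it, so that E2F factors are released and the genes of DNA replication are transcribed. CIP/KIP proteins bind cyclin and kinase together and inhibit CDK2 in particular, whereas p27 and p21 also help to assemble cyclin D with CDK4. GADD45A and CDKN1A are induced by DNA damage and other stresses, and MDM2 is a ubiquitin ligase that marks proteins for destruction.

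By 24 h CBD had lowered 6 of the 9 members that could be tested and raised 2, where 21.3% of all tested rows were lower and 20.8% higher. CCND1 fell from 6 h onward and reached 0.724 times the vehicle mean. CCNE1, CCNE2, CDKN1B, CDKN1C and MDM2 were lower by 24 h, at 0.768 to 0.908 times vehicle. The CDKN1C call at 24 h was lost in 4 of 8 fits with 1 sample left out. CDKN1A was higher at 12 and 24 h, at 1.33 times vehicle at both, and GADD45A at 3 and 24 h, at 1.22 and 1.17 times, though both GADD45A calls, and that of CCNE1 at 3 h, were lost when most single samples were left out. CCND3 passed the test at no time, and CCND2 was close to absent.

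The levels of the members differed widely. The table gives FPKM, fragments scaled to exon length and to the mapped total of the library, so that levels of different genes can be set side by side. Over the 16 vehicle samples the median was 212 FPKM for CCND1, 56.2 for CDKN1B, 21.8 for GADD45A, 16.4 for CCND3, 12.5 for CCNE2, 11.9 for MDM2, 5.60 for CDKN1C, 2.12 for CCNE1 and 1.496 for CDKN1A. Neighbours in this order were apart only in part. The vehicle range of CCNE2, 10.2 to 14.5 FPKM, covered most of that of MDM2, 9.42 to 13.8, and met that of CCND3, 11.8 to 18.8. GADD45A, at 18.6 to 23.8, touched the top of CCND3, while CCNE1 (1.76 to 2.80) lay just above CDKN1A (1.28 to 1.73). CCND2 was above 0 in 11 of 32 samples and never exceeded 0.0108 FPKM, so CCND1 and CCND3 made up practically all of the D-type cyclin mRNA.

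The genes lie, in hg19 (GRCh37) coordinates, at chr11:69455924-69469242 (CCND1), chr12:4378937-4414519 (CCND2), chr6:41902672-42018095 (CCND3), chr19:30302898-30315219 (CCNE1), chr6:36644237-36655114 (CDKN1A), chr12:12838432-12875303 (CDKN1B), chr11:2904443-2907005 (CDKN1C), chr1:68150884-68154017 (GADD45A) and chr12:69201957-69239324 (MDM2). Exons of CCNE2 overlap exons of INTS8, and exons of MDM2 overlap exons of CPM, in both cases on the opposite strand. The libraries were stranded, but whether fragments were assigned by strand is not given in the sources used here, so values of CCNE2 and MDM2 may hold reads of these partners.

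Promoters are shown for 3 members with different calls under CBD. CDKN1A was called higher at 12 and 24 h, CCNE1 higher at 3 h and lower at 24 h, and MDM2 lower at 24 h. The stretches run from base -220 to base -21 before the RefSeq start (GRCh38.p14 promoter table, placed by exact match on hg19) and are written 5′ to 3′ on the plus strand, with capitals for GGGCGG on either strand, the core bound by SP1, and for TGANTCA, the AP-1 element. They lie at chr6:36646271-36646470 for CDKN1A, chr19:30302678-30302877 for CCNE1 and chr12:69202577-69202776 for the inner start of MDM2.
CDKN1A: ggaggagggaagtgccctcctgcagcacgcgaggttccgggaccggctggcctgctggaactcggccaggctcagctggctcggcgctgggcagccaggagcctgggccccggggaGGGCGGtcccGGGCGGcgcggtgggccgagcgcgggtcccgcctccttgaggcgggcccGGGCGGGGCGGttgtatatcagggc
CCNE1: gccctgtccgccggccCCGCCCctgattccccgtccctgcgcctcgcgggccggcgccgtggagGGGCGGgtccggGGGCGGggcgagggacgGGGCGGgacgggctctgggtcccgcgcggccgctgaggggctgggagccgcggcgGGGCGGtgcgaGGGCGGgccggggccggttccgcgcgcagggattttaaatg
MDM2: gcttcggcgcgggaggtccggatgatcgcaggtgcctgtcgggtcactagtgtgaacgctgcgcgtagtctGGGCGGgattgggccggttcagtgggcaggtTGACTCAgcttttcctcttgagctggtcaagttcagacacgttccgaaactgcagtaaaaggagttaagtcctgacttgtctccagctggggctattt

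RefSeq promoters were at hand for 5 members, those printed and CCND3 and CDKN1B, and each was searched over the 250 bases before its starts on both strands. They had 10 promoters in all, 4 of MDM2, which overlap in part, 3 of CCND3 and 1 of each other gene, so that genes with more starts had more chances to match. GGGCGG was present in 8 of the 10, with a match in all 5 genes, against 42.6% of the 35093 promoters in the table. TGANTCA was present in 2 of the 10, both of MDM2, against 6.57% of all promoters. The E2F form TTTNNCGC matched 2 as well, those before the outer starts of MDM2, against 5.92%. In each of these pairs both matches are the same site, since the promoters overlap. TGCNCNC, a form looser than the core of the metal response element, matched 8 of the 10, in 4 genes, against 49.1%. These matches are therefore not a count of that core. No match was found for the cyclic AMP element TGACGTCA (1.65% of all promoters), the amino acid response form TGATGNAA (3.15%) or the E-box CACGTG (6.34%).

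The cells carried the transcripts of their label. All 9 markers of adrenergic neuroblastoma cells read here, among them GATA3, ISL1 and MYCN, had a mean of at least 1 FPKM, with a summed level of 4235 to 5151 FPKM. Of these 9 markers MYCN was higher with CBD at 24 h and 4 were lower, with log2 differences of -1.496 for DBH, -0.93 for CHGA, -0.38 for ISL1 and -0.09 for STMN2, and the part of this in the results was not tested. All 5 Schwann or glial markers and the 4 blood markers in the table were below 1 FPKM. Of 6 fibroblast markers LUM, DCN and COL1A1 reached a mean of 1 FPKM, LUM at 44.1 to 67.8 FPKM, and the summed level was 54.3 to 77.6 FPKM, while COL1A2 stayed at or below 0.0298. At 24 h the CBD samples had less DCN (-0.39 on the log2 scale) and more LUM (0.13), and the part of fibroblast markers in the results for cyclins and inhibitors was not tested. Read totals are not in the table, but steps of the lowest values gave relative depths of 0.794 to 1.20, and 19359 to 19962 rows were above 0 in a sample. In bulk RNA fewer cells of a type and less RNA per cell cannot be told apart, and where nothing but a replicate number separates samples, p-values measure the spread between these samples, which may be technical.

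CCND1, which made up most of the D-type cyclin mRNA of these cells, gave the largest change of any member at 24 h. At 3 h its values were 246, 246, 241 and 250.6 FPKM in the 4 CBD replicates and 248, 245, 232 and 235 in vehicle, and the groups overlapped. At 6 h they were 194, 196, 202 and 192 with CBD and 221, 221, 215 and 213 with vehicle. Every CBD sample was then below every vehicle sample, and this remained so at both later times. CBD values at 12 h were 159, 165, 164 and 178 FPKM against 211, 203, 197 and 193, and at 24 h they were 133, 126, 133 and 133 against 179, 185, 182 and 180.0. The group means thus stood at 1.02, 0.900, 0.828 and 0.724 times vehicle at 3, 6, 12 and 24 h.

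Tests were made with limma on log2(FPKM + 1) over the 12621 rows with a mean of at least 1 FPKM, and a gene was called at a Benjamini-Hochberg adjusted p under 0.01. This scale understates the change of genes with low levels such as CDKN1A and CCNE1. The log2 fold change of CCND1 was 0.04 at 3 h (limma, adjusted p = 0.50), -0.15 at 6 h (0.000520), -0.27 at 12 h (6.43e-08) and -0.46 at 24 h (7.13e-13), with a 95% interval of -0.52 to -0.40 at 24 h. The effect at 24 h differed from that at 3 h by -0.50 (limma, adjusted p = 4.34e-10). Steps between neighbouring times were -0.19 from 3 to 6 h (0.00716), -0.12 from 6 to 12 h (0.0862) and -0.19 from 12 to 24 h (0.00199), so that the step from 6 to 12 h did not pass.

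**Figure D1:**
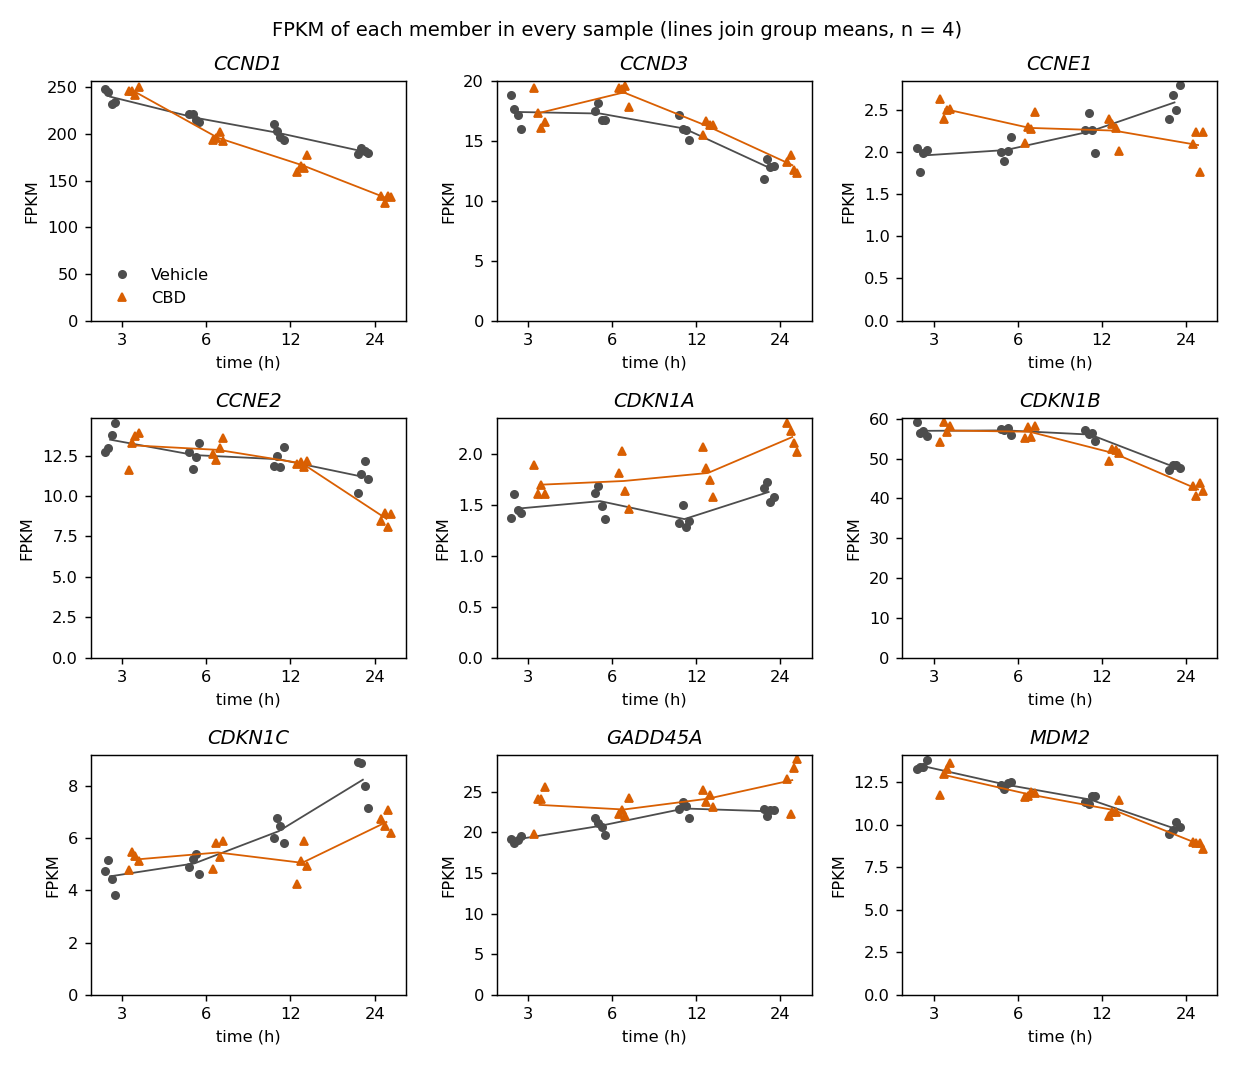
FPKM of the 9 tested members (vertical axis, linear, from 0) at 3, 6, 12 and 24 h (horizontal axis) for vehicle (grey circles) and CBD (orange triangles); each point is 1 sample and lines join the means of 4 replicates. CCND1 declined in both arms and more steeply with CBD, to 126 to 133 FPKM at 24 h against 179 to 185, whereas CDKN1A with CBD lay at 2.03 to 2.31 FPKM at 24 h, above all vehicle samples.

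The other D-type cyclin gene that was tested, CCND3, was called at no time. At 24 h it read 13.2, 13.8, 12.6 and 12.3 FPKM with CBD and 11.8, 13.5, 12.9 and 12.9 with vehicle. The samples were intermixed, and the log2 fold change was 0.02 with a 95% interval of -0.09 to 0.13 (limma, adjusted p = 0.765). At 6 h CCND3 averaged 19.1 ± 0.825 FPKM (SD, n = 4) with CBD and 17.3 ± 0.687 with vehicle, a log2 fold change of 0.13 that did not pass (limma, adjusted p = 0.0734). In a test over all 4 times together CCND3 was the only tested member that did not pass (limma F-test, adjusted p = 0.228), where 47.2% of all rows passed.

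In proportion, CCND1 made up 93.4% ± 0.262 (SD, n = 4) of the summed D-type cyclin FPKM in vehicle at 24 h and 91.0% ± 0.616 with CBD, a difference of -2.42 percentage points. The differences were -1.51 points at 6 h and -1.501 at 12 h. The raw p was 0.0286 at each of these times in an exact two-sided permutation test, the smallest p that 4 against 4 samples allow, and 0.0816 after Benjamini-Hochberg adjustment over the 20 shares tested, so none passed 0.05. The summed D-type level itself was 144 ± 2.89 FPKM with CBD and 194 ± 3.26 with vehicle at 24 h.

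CCNE1 encodes cyclin E1, an activator of CDK2, and it moved in opposite directions early and late. At 3 h it read 2.63, 2.40, 2.50 and 2.52 FPKM with CBD and 2.05, 1.76, 1.99 and 2.03 with vehicle. At 24 h it read 2.09, 2.25, 1.76 and 2.24 with CBD and 2.39, 2.68, 2.50 and 2.80 with vehicle. The groups did not overlap at either time, with CBD above vehicle first and below it last, and at 12 h they were intermixed. CBD differed from vehicle on the log2 scale by 0.25 at 3 h (limma, adjusted p = 0.00448), 0.12 at 6 h (0.113), 0.00 at 12 h (0.969) and -0.22 at 24 h (0.000913), and the difference of -0.47 between 24 and 3 h passed its own test (1.60e-05). With the 24 h samples fitted on their own the call at that time was lost (limma, adjusted p = 0.0168).

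That difference combined a rise in vehicle with a fall under CBD. CCNE1 in vehicle went from 1.96 ± 0.134 FPKM (SD, n = 4) at 3 h to 2.59 ± 0.179 at 24 h, a log2 change of 0.28 (limma, adjusted p = 4.33e-05), and with CBD it went from 2.51 ± 0.0967 to 2.09 ± 0.228, a change of -0.19 (0.00210). Under quantile normalization the vehicle change was 0.13 and did not pass (limma, adjusted p = 0.0325).

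CCNE2 encodes cyclin E2, which also activates CDK2. The gene lies at chr8:95891998-95908906 (hg19), and its transcript was the more abundant of the E-type cyclins in all samples. It was not called at 3, 6 or 12 h, with log2 fold changes of -0.04, 0.03 and -0.03. At 24 h it read 8.46, 8.97, 8.06 and 8.89 FPKM with CBD and 10.2, 11.4, 12.2 and 11.1 with vehicle. All CBD samples were below all vehicle samples, the mean was 0.768 times vehicle, and the log2 fold change was -0.34 with a 95% interval of -0.45 to -0.24 (limma, adjusted p = 3.37e-06). The step from 12 to 24 h, -0.32, passed as well (limma, adjusted p = 0.00357).

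Within the E-type pool, CCNE1 held 16.1% ± 1.56 (SD, n = 4) with CBD and 12.7% ± 0.852 with vehicle at 3 h, and 19.5% ± 1.05 and 18.8% ± 1.29 at 24 h. The 3 h difference of 3.42 points had the smallest possible exact permutation p, 0.0286, and an adjusted p of 0.0816. At 6 h the difference was 1.20 points, with the same p and adjusted p. Summed E-type FPKM at 24 h was 10.7 ± 0.644 with CBD and 13.8 ± 0.886 with vehicle.

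**Figure D2:**
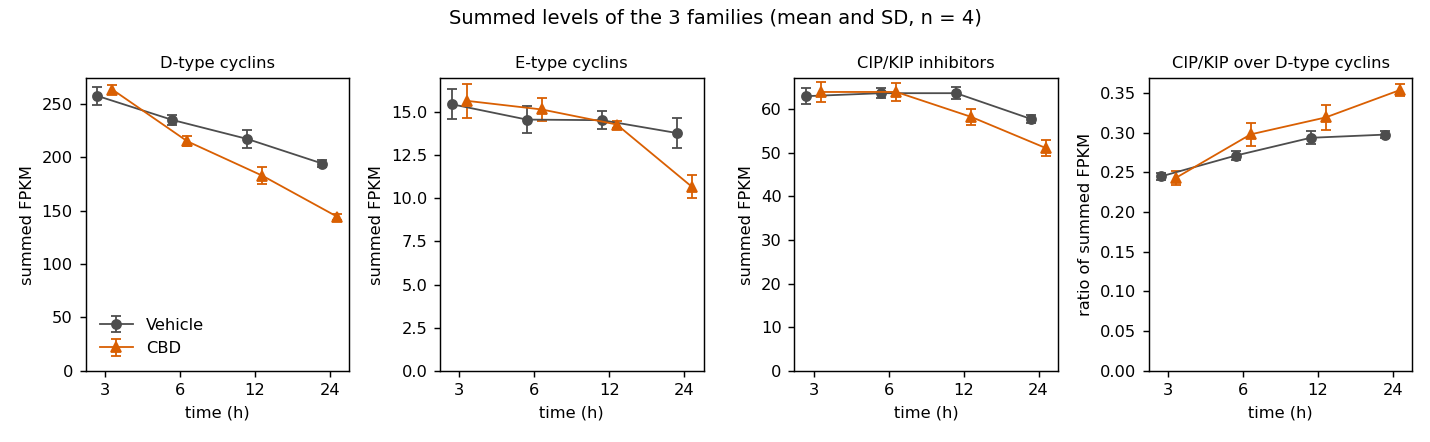
Summed FPKM of the D-type cyclins, of the E-type cyclins and of the CIP/KIP inhibitors, and the ratio of the CIP/KIP sum to the D-type sum (vertical axes, from 0), by time in h for vehicle (grey circles) and CBD (orange triangles); points are means of 4 samples and bars are SD. All 3 sums were lower with CBD at 24 h, while the ratio was 0.354 with CBD and 0.297 with vehicle.

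CDKN1A, which encodes the inhibitor p21, was the only CIP/KIP gene called higher with CBD than with vehicle. At 12 h its values were 2.07, 1.87, 1.75 and 1.59 FPKM with CBD and 1.33, 1.5, 1.28 and 1.34 with vehicle. At 24 h they were 2.31, 2.24, 2.12 and 2.03 with CBD and 1.67, 1.73, 1.54 and 1.58 with vehicle. Every CBD sample was higher than every vehicle sample at both times, and the means were 1.33 times vehicle at each, from a base that was the lowest of the 9 tested members. On the log2 scale the differences were 0.13 at 3 h (limma, adjusted p = 0.160), 0.11 at 6 h (0.203), 0.25 at 12 h (0.00124) and 0.27 at 24 h (0.000263). The difference between the effects at 24 and 3 h, 0.14, did not pass (limma, adjusted p = 0.183), so a later effect larger than the early one was not shown. With the 12 h samples fitted on their own the call at that time was lost (limma, adjusted p = 0.0163).

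CDKN1B, which encodes p27 and was the most abundant inhibitor transcript, fell. Its values at 12 h were 49.5, 52.5, 52.1 and 51.3 FPKM with CBD and 57.1, 56.1, 56.4 and 54.6 with vehicle. By 24 h they were 43.1, 40.5, 43.8 and 41.8 with CBD and 47.1, 48.3, 48.4 and 47.7 with vehicle. No CBD sample reached the lowest vehicle sample at either time. The log2 fold change was 0.00 at 3 h, -0.01 at 6 h, -0.12 at 12 h (limma, adjusted p = 0.000794) and -0.18 at 24 h (3.69e-06), and the 24 h effect differed from the 3 h effect by -0.18 (0.000476). The mean at 24 h was 0.883 times vehicle.

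CDKN1C, which encodes p57, was lower with CBD at the later times against a vehicle level that climbed. In vehicle it went from 4.72, 5.15, 4.44 and 3.82 FPKM at 3 h to 8.91, 8.86, 7.99 and 7.16 at 24 h, a log2 change of 0.74 (limma, adjusted p = 4.48e-09) and the largest rise over time of any member. CBD cultures read 4.78, 5.47, 5.32 and 5.11 FPKM at 3 h and 6.73, 6.45, 7.07 and 6.20 at 24 h. Levels therefore rose in both arms, by 0.30 on the log2 scale with CBD (limma, adjusted p = 0.00102), and the CBD samples ended below all vehicle samples. The log2 fold change against vehicle was 0.16 at 3 h (limma, adjusted p = 0.210), 0.10 at 6 h (0.423), -0.27 at 12 h (0.00975) and -0.27 at 24 h (0.00410), and the effect changed by -0.44 between 3 and 24 h (0.00244). At 12 h the groups overlapped, since 1 CBD sample read 5.89 and 1 vehicle sample 5.80. Leaving out CBD replicate 1, at 4.25 FPKM, gave -0.20 and an adjusted p of 0.0599 (limma), and this call was also lost without CBD replicate 2 or 4 or vehicle replicate 1, 2 or 3. It was lost too with 5 added before the logarithm, without the filter on low FPKM, without a trend in eBayes, with relative depth in the model and with the 12 h samples fitted alone (limma, adjusted p from 0.0101 to 0.0440). The call at 24 h was lost without CBD replicate 2 or 4 or vehicle replicate 1 or 2 (limma, adjusted p up to 0.0190).

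CDKN1B made up 82.8% of the summed CIP/KIP FPKM with CBD and 82.9% with vehicle at 24 h, and the sum was 51.1 ± 1.77 FPKM (SD, n = 4) against 57.7 ± 1.00. CDKN1A took 4.26% ± 0.272 of that sum with CBD and 2.82% ± 0.129 with vehicle at 24 h, and 3.13% against 2.14% at 12 h. Both differences stood at an exact permutation p of 0.0286, the smallest allowed, and at 0.0816 adjusted. The ratio of CIP/KIP to D-type FPKM was 0.243 at 3 h and 0.354 at 24 h with CBD, and 0.245 and 0.297 with vehicle. No test was made on it.

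GADD45A, whose product binds PCNA, CDK1 and the kinase MAP3K4, was higher with CBD at 3 h and again at 24 h, but the first call was lost in 7 of 8 fits with 1 sample left out and the second in 6 of 8. At 3 h it read 19.7, 24.1, 24.1 and 25.5 FPKM with CBD and 19.2, 18.6, 19.0 and 19.5 with vehicle. Then 3 of the CBD samples stood well above vehicle, and replicate 1 exceeded the highest vehicle sample by a narrow margin. At 24 h the values were 26.6, 22.2, 27.9 and 28.9 with CBD and 22.8, 22.0, 22.8 and 22.7 with vehicle. Here CBD replicate 2 lay within the vehicle range and the groups overlapped. As log2 fold changes these were 0.27 at 3 h (limma, adjusted p = 0.00737), 0.13 at 6 h (0.152), 0.07 at 12 h (0.422) and 0.21 at 24 h (0.00526). The effects at 24 and 3 h differed by -0.06 (0.618), with a 95% interval of -0.24 to 0.12.

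MDM2, which encodes a ubiquitin ligase, was slightly lower. At 24 h it read 9.004, 8.94, 8.95 and 8.59 FPKM with CBD and 9.42, 9.70, 10.1 and 9.83 with vehicle, with no overlap. The mean was 0.908 times vehicle and the log2 fold change was -0.13 with a 95% interval of -0.19 to -0.06 (limma, adjusted p = 0.000977). The estimates at 3, 6 and 12 h were -0.06, -0.06 and -0.07 and did not pass (limma, adjusted p = 0.249, 0.144 and 0.0673). MDM2 also declined with time in culture, from 13.5 ± 0.241 FPKM (SD, n = 4) in vehicle at 3 h to 9.77 ± 0.294 at 24 h, a log2 change of -0.42 (limma, adjusted p = 3.11e-12).

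**Figure D3:**
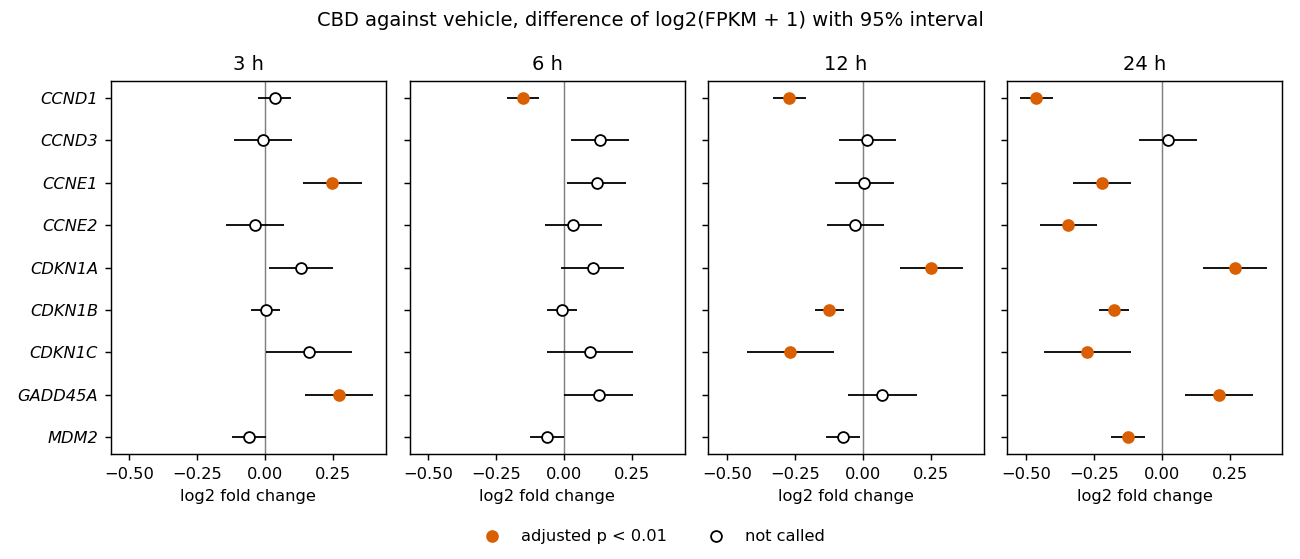
Log2 fold change of CBD against vehicle on log2(FPKM + 1) (horizontal axis) for the 9 tested members (vertical axis) in a panel for each time; points are limma estimates from 4 against 4 samples, bars are 95% intervals, and filled points have an adjusted p under 0.01. From left to right the panels hold 2, 1, 4 and 8 filled points, and those of CCND1 move from -0.15 at 6 h to -0.46 at 24 h.

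The count of members called grew with time, as did the count over all rows. At 3 h 2 of the 9 tested members were called, CCNE1 and GADD45A, both higher, where 2.46% of all tested rows were called and 1.18% were called higher. At 6 h CCND1 alone was called, as lower, against 10.2% of rows, with 6.13% lower. At 12 h 4 were called (CDKN1A higher, CCND1, CDKN1B and CDKN1C lower), against 20.1% of rows, with 8.85% higher and 11.2% lower. At 24 h 8 were called, 2 higher and 6 lower, against 42.1% of rows, with 20.8% higher and 21.3% lower. The median log2 fold change of the 9 members at 24 h was -0.18, and over all tested rows it was 0.00. Groups did not overlap for 7 of the 9 at 24 h, 6 of them with CBD lower, where this held for 51% of rows, with CBD lower in 25.9%. They did not overlap for 2 of the 9 at 3 h, against 9.88% of rows, for 3 at 6 h, against 19.6%, and for 3 at 12 h, against 30.3%. At 6 h these included GADD45A, at 22.0 to 24.2 FPKM with CBD and 19.7 to 21.8 with vehicle, and MDM2, at 11.6 to 11.9 and 12.1 to 12.5, neither of which was called then.

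The 3 h calls rested on narrow margins. The median relative depth at 3 h was 0.925 in CBD and 1.05 in vehicle samples, and with relative depth in the model neither CCNE1 (log2 fold change 0.24, limma adjusted p = 0.0128) nor GADD45A (0.24, 0.0270) was called. The part of depth in these results was not tested beyond this. With the 3 h samples fitted alone the adjusted p was 0.0493 for CCNE1 and 0.139 for GADD45A (limma). Leaving out 1 sample at a time removed the CCNE1 call in 6 of 8 instances, all but those without CBD replicate 2 or vehicle replicate 1, with adjusted p up to 0.0238 (limma). It removed the GADD45A call in 7 of 8, all but that without CBD replicate 1, with adjusted p up to 0.0304 (limma). The estimates stayed between 0.21 and 0.28 where a call was lost. At 24 h the GADD45A call was lost under median-ratio scaling (limma, adjusted p = 0.0111), with relative depth in the model (0.0112) and with the 24 h samples fitted alone (0.0400). It was also lost without any of CBD replicates 1, 3 and 4 or vehicle replicates 2, 3 and 4 (limma, adjusted p up to 0.0318).

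A change of the CBD effect between 3 and 24 h was called for 5 of the 9 members, CCND1, CCNE1, CCNE2, CDKN1B and CDKN1C, each toward lower, against 27.2% of all rows, with 14.3% lower. Between 6 and 12 h none of the 9 was called by limma, against 2.33% of rows, and at an unadjusted p under 0.05 there were 3, those of CCND1, CDKN1B and CDKN1C. Between 12 and 24 h CCND1 and CCNE2 were called, against 8.15%, and between 3 and 6 h CCND1 alone, against 2.1%.

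Members moved with time in vehicle too. From 3 to 24 h 8 of the 9 members were called in vehicle, against 57.8% of rows. CCNE1, CDKN1C and GADD45A rose, where 26.6% of rows did, while CCND1, CCND3, CCNE2, CDKN1B and MDM2 fell, where 31.1% did. CCND3, for example, went from 17.4 ± 1.17 FPKM (SD, n = 4) to 12.8 ± 0.696, and CDKN1B from 57.0 ± 1.53 to 47.9 ± 0.586. CDKN1A was the exception, with a log2 change of 0.09 (limma, adjusted p = 0.150). Between 12 and 24 h 5 members were called, against 39.4% of rows, and between 3 and 6 h CCND1 and MDM2 fell, against 9.48%. In CBD cultures 8 of the 9 were also called from 3 to 24 h, against 67.8% of rows, and the log2 change of CCND1 was -0.90 there and -0.40 in vehicle. GADD45A in CBD cultures changed by 0.17 and did not pass (limma, adjusted p = 0.0152). Time after dosing and the state of the culture cannot be told apart.

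The kinases that these cyclins bind, and their other inhibitors, were also read. RNA for CDK4, the kinase of D-type cyclins, was 109 FPKM with CBD and 123 with vehicle at 24 h, or -0.16 in log2 fold change (limma, adjusted p = 0.00110), whereas CDK6 was higher, at 49.6 and 43.2 FPKM, a change of 0.19 (0.00566). CDC25A, the phosphatase that activates CDK2, fell by 0.48 on the log2 scale, from 7.61 FPKM in vehicle to 5.16 (limma, adjusted p = 6.69e-13). Of 7 G1 kinases and activators 2 were higher and 3 lower at 24 h, where 20.8% of all rows were higher and 21.3% lower. The 24 h counts of the lists that follow are also to be read against these shares. For counts of lower genes the share of all rows was 6.13% at 6 h and 11.2% at 12 h. Among 3 tested INK4 inhibitors, which bind CDK4 and CDK6, CDKN2C was lower at 6, 12 and 24 h, with -0.33 at 24 h, and the others were not called. The RB1 transcript, for the retinoblastoma protein, had a log2 fold change of -0.10 that did not pass (limma, adjusted p = 0.0509). Of 13 genes of the RB and E2F families 7 were lower at 24 h and the other 6 were not called. The lower ones included E2F3, with -0.27 (15.2 FPKM with CBD and 18.4 with vehicle), and E2F7, with -0.26 (0.939 and 1.32 FPKM), a low gene whose change the added 1 understates.

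Genes that E2F factors switch on were mostly lower with CBD than with vehicle by 24 h. Of 21 replication genes of this kind none was called at 3 h by limma, with 11 at an unadjusted p under 0.05. At 6 h 1 was higher and 5 lower, at 12 h 16 were lower, and at 24 h 20 were lower and 1 higher. Their median log2 fold change at 24 h was -0.38, against 0.00 over all rows. For 20 of the 21 the effect at 24 h was called lower than that at 3 h by limma, against 14.3% of rows. UHRF1, which maintains DNA methylation at replication, fell most, by 0.63 on the log2 scale, and RRM2, a subunit of ribonucleotide reductase, fell by 0.46. The exception at 24 h was CDT1, a licensing factor, at 0.24. In vehicle alone 18 of the 21 replication genes also fell from 3 to 24 h, with a median log2 change of -0.32, where 31.1% of rows fell. Of 14 mitosis genes 8 were lower at 6 h, 7 at 12 h and 4 at 24 h, with CDC20 higher at 24 h by 0.12. Of the 6 other cyclins tested CCNG1 was higher at 24 h by 0.33, and CCNA2, CCNB1, CCNB2 and CCNG2 were lower.

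**Figure D4:**
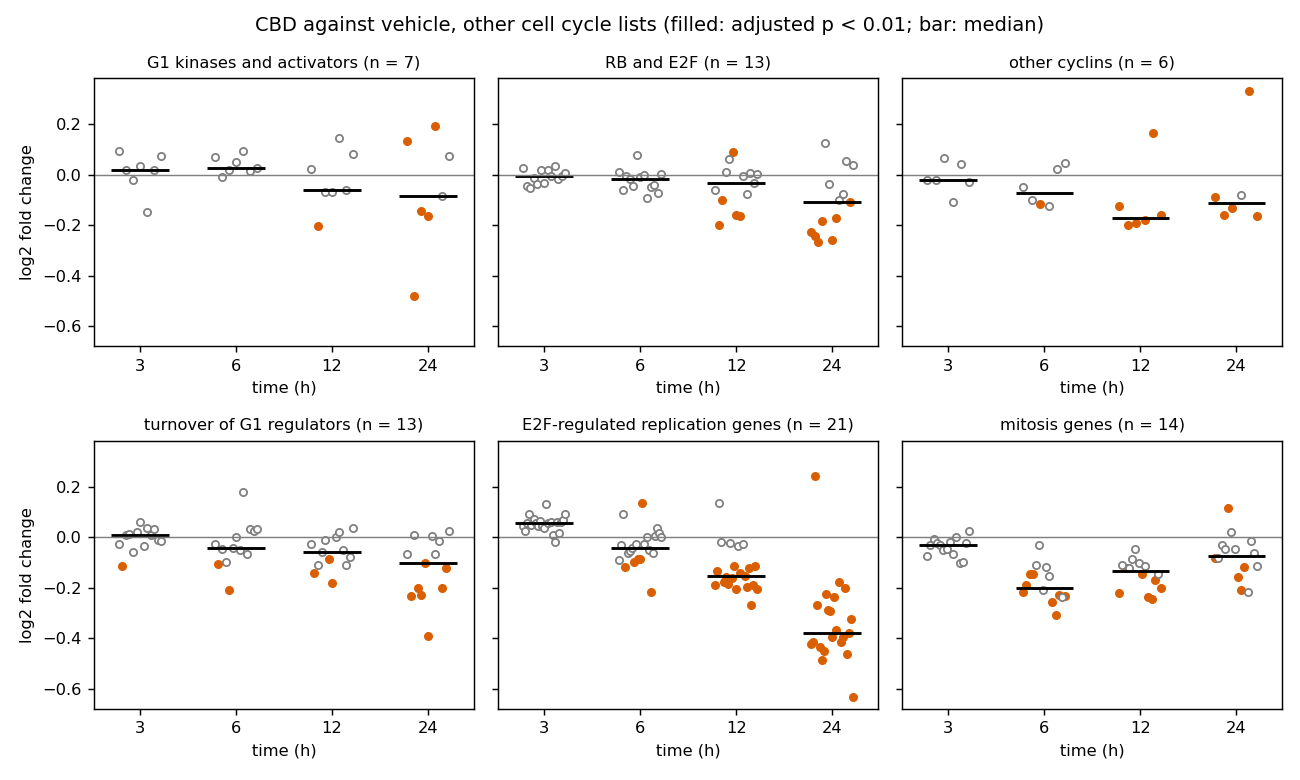
Log2 fold change of CBD against vehicle (vertical axis) by time in h for the genes of 6 cell cycle lists, 1 point a gene, filled where the adjusted p was under 0.01 and with a bar at the median of the list. For E2F-regulated replication genes the median moved from 0.06 at 3 h to -0.38 at 24 h, while for genes of the turnover of G1 regulators it was 0.01 at 3 h and -0.10 at 24 h.

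MDM4 and GADD45G, relatives of MDM2 and GADD45A, moved in the opposite direction to them at 24 h, and GADD45B was too low to be tested. MDM4, which forms dimers with MDM2, was at 6.82 FPKM with CBD and 5.91 with vehicle and was higher by 0.18 on the log2 scale (limma, adjusted p = 0.000137). GADD45G, which shares its fold and partners with GADD45A, was at 2.96 and 4.33 FPKM and was lower, with -0.45 (limma, adjusted p = 0.000373). Neither was called at 3, 6 or 12 h.

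A list of transcription factors was read as well, and their part in the results for the members was not tested. At 24 h 7 of 10 tested were higher and 1 lower. ATF4, the amino acid stress factor, was higher at every time, with 0.24, 0.38, 0.35 and 0.41 at 3, 6, 12 and 24 h, and DDIT3, which encodes CHOP, reached 1.29 at 24 h. EGR1 was higher at all 4 times, with 0.62 at 3 h. JUN, a subunit of AP-1, was lower at 6 h, with -0.81, and at 12 h, with -0.66, and was not called at 24 h. MYCN was higher from 6 h, with 0.54 at 24 h. Of 13 genes for the turnover of cyclins and inhibitors 7 were lower at 24 h and the other 6 were not called. The lower ones included DTL, which directs p21 and CDT1 to destruction in S phase, at -0.39.

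Some members followed each other across the 32 samples, which share treatment, time and depth. On the log2 scale Pearson's r was 0.91 between CCND1 and MDM2, 0.88 between CCND1 and CDKN1B, 0.91 between CDKN1B and MDM2 and 0.89 between CCNE2 and MDM2. CDKN1A ran against CCNE2 (-0.69), CDKN1B (-0.67) and CCND1 (-0.66), and the r of CCNE1 with the other members lay between -0.19 (MDM2) and 0.36 (CDKN1C). Over all tested rows, the profile most like that of CCND1 was TXNDC15 (0.97), followed by CYP1B1 and IGFBP5 (both 0.97). HMGN2 was nearest to CDKN1B (0.98), CHEK1 to MDM2 (0.98), BZW1 to CCNE2 (0.95), SNX22 to CDKN1C (0.90), CPNE7 to CDKN1A (0.88), RSL24D1 to GADD45A (0.88) and ZSCAN26 to CCNE1 (0.70).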

How the data were processed

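RNA of 32 SK-N-BE(2) samples was sequenced as single 50-base reads, in 4 replicates for each of 2 treatments and 4 times. Per the methods, the authors used Trimmomatic for trimming and TopHat for alignment to hg19, allowing 2 mismatches, and obtained FPKM with Cufflinks and Cuffdiff; the deposited FPKM table is the only one used here. The methods name a TruSeq kit and the labels a Nugen protocol. A deposited table of the authors' own fold changes, p-values and q-values was not used. Here log2(FPKM + 1) of the 12621 of 22610 rows with a mean of at least 1 FPKM was fitted in limma 3.58.1 (R 4.3.3) as 8 group means, with eBayes and trend, and p-values were adjusted by Benjamini-Hochberg within each comparison at a threshold of 0.01. Changes at low FPKM are understated by the added 1. Family shares were compared by exact permutation in Python 3.11.15, with scipy 1.17.1. The fit was tested on simulated data with 200 changed genes. Gene positions are those of GENCODE 44 on GRCh37. All 10 members were named; genes from the lists were the called ones with the largest changes, up to 4 for each list and time, beside MDM4, RB1, CDK4 and CDK6. The members and lists were chosen with earlier results of these data known. Some genes of the naming rule, marker list and target lists are not reported here. CDT1 and CCNA2 lie outside the rule and were named after their values were seen. GADD45B and the markers STMN2, GATA3, COL1A1 and COL1A2 lie outside it as well.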

Additional observations from a re-analysis of the deposited data

Results flagged for a closer look

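In 72 groups of 4 samples, each the values of 1 tested member at 1 time and treatment, 4 held a sample far from the other 3 by Dixon's gap ratio at the 95% level, and chance alone flags about 1 in 20 groups. CCND1 read 126.3 FPKM in CBD replicate 2 at 24 h, with the others between 132.8 and 133.2. CCND3 read 17.8 FPKM in CBD replicate 4 at 6 h, with the others between 19.3 and 19.6. GADD45A read 22.0 FPKM in vehicle replicate 2 at 24 h, with the others between 22.7 and 22.8. MDM2 read 8.59 FPKM in CBD replicate 4 at 24 h, with the others between 8.94 and 9.004.

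For 5 members the effect of CBD differed between 24 and 3 h when that difference itself was tested with limma. It was -0.50 on the log2 scale for CCND1, from 0.04 to -0.46 (adjusted p = 4.34e-10). For CCNE1 it was -0.47, from 0.25 to -0.22 (1.60e-05). For CDKN1C it was -0.44, from 0.16 to -0.27 (0.00244), for CCNE2 -0.31, from -0.04 to -0.34 (0.00151), and for CDKN1B -0.18, from 0.00 to -0.18 (0.000476).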

How the results depend on the processing

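Of 54 member values tested, 45 kept their side of the threshold under the 9 to 12 other settings that gave each a value and with each of the 8 or 16 samples of its comparison left out in turn. No called value changed sign. Some values that were not called did, such as CCND1 at 3 h, at 0.04 in the main fit and down to -0.02 under another setting. The 2 members called at 3 h became 1 without the filter on low FPKM, with a mean of at least 5 FPKM, with quantile normalization and with a replicate block of 16 pairs within times, and 0 with relative depth as covariate and with each time fitted alone. They ranged from 0 to 1 with 1 sample left out. The 310 genes called at 3 h became 190 with relative depth, 26 with the time fitted alone and 917 at an adjusted p under 0.05, and ranged from 164 to 493 with 1 sample left out. The low end came without vehicle replicate 4 and the high end without CBD replicate 1. At 6 h the 1288 genes called became 405 with the time fitted alone and 2434 at an adjusted p under 0.05. At 12 h the 4 members called became 2 with the time fitted alone. Fitting a time alone leaves 8 samples to estimate the spread, and a mean of at least 5 FPKM removes CCNE1 from the test; for the other settings the cause was not tested. MDM2 gained a difference between 24 and 3 h without CBD replicate 1 at 3 h (-0.11, limma, adjusted p = 0.00992). With the replicate block GADD45A at 3 h was no longer called (limma, adjusted p = 0.0116). Same-numbered CBD and vehicle samples share only a number: their deviations from the group means correlated at -0.0757 to 0.0935 in the 16 pairs, and not every sample correlated best with its own number. Median-ratio scaling moved the share of higher calls at 24 h from 49.4% to 40.7%. None of the 20 family shares passed 0.05, but 0.0286 is the smallest exact permutation p that 4 against 4 samples allow. After adjustment over 20 shares, a few shares at that p could not pass, even where the groups did not overlap. Read totals are not in the table, so counting error at low FPKM, as for CDKN1A and CCNE1, could not be given.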
